A study of Mus with 3 samples.

Results

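Foxp3 and 8 further genes known from regulatory T cells were followed in T cells of MC38 tumors, as 9 of the 32285 genes counted. The genes were Foxp3, Il2ra, Ikzf2, Ikzf4, Lrrc32, Izumo1r, Itgb8, Ebi3 and Maf. They were chosen by name for what is known of them, when earlier results of these data were already at hand. Regulatory T cells (Treg cells) are CD4 T cells that restrain other immune cells, and tumors often hold many of them. Foxp3 is the transcription factor that sets their identity. Treg cells take up IL-2 through a receptor with a high-affinity subunit, and they carry latent TGF-β on their surface and help to release it in active form. Few of the genes linked to Foxp3 are made by Treg cells alone, so the co-occurrence with Foxp3 in single cells was measured for each.

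MC38 is a mouse colon cancer line. Its tumors were collected on day 16 in mice of 3 genotypes, named WT, RARα-KO and RARα-TG, and values follow that order wherever no genotype stands beside them. RARα-KO mice carry dLck-Cre, a Cre under the distal Lck promoter, and a floxed Rara, and RARα-TG mice carry Rara under the CD2 promoter. Per the paper, both promoters act in all T cells. For each genotype, which had its own hashtag antibody, 30000 sorted T cells (CD45.2+ CD3+) were combined with 10000 cells of the whole tumor suspension. A single 5′ library (10x Genomics) with T cell receptor (TCR) sequences was made from the pool, so each genotype is 1 sample. The study used age-matched young mice of both sexes for most experiments, and it states that its later work focused on males. The age and number of the mice behind this library, and whether the WT mice were C57BL/6 or dLck-Cre animals, were not given in the sources used here. The labels also name spleen and activated naive CD8 T cells, which do not match the tumor protocol in the same labels, and the protocol was followed.

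The library held 17766060 gene UMIs (unique transcripts counted) for WT, 16191256 for RARα-KO and 4011140 for RARα-TG cells, with 1306, 1461 and 662 T cells. A T cell was a cell with a TCR clonotype. A CD4 T cell was a T cell with a Cd4 UMI and no Cd8a or Cd8b1 UMI, and a CTL was a T cell with a Cd8a UMI and no Cd4 UMI. This gave 196 CD4 T cells for WT, 230 for RARα-KO and 242 for RARα-TG tumors, and 798, 993 and 95 CTLs. All 6 T cell markers were detected in the Foxp3-positive CD4 T cells of each genotype. Rara itself stood at 95.3 CPM (UMIs of a gene per 1000000 UMIs of all genes in the same cells) for WT, 100.3 CPM for RARα-KO and 328 CPM for RARα-TG Foxp3-positive CD4 T cells. Counts from the 5′ end need not cover the floxed part of Rara, so the RARα-KO value does not check the deletion.

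On mm10, to which the authors aligned the reads, with RefSeq positions of GRCm38.p6, Foxp3 (ENSMUSG00000039521) lies on chromosome X from 7579676 to 7595243. Il2ra lies on chromosome 2 from 11642792 to 11693194, Ikzf2 on chromosome 1 from 69531207 to 69687351 and Ikzf4 on chromosome 10 from 128630839 to 128669671. Lrrc32 lies on chromosome 7 from 98489305 to 98501831, Itgb8 on chromosome 12 from 119162803 to 119238276 and Izumo1r on chromosome 9 from 14885814 to 14903951. Ebi3 lies on chromosome 17 from 55952623 to 55957022 and Maf on chromosome 8 from 115703253 to 115706894. The counts are per whole gene and do not tell isoforms apart.

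Foxp3 was detected in 107 of 196 CD4 T cells of WT tumors, 54.6% (exact Clopper-Pearson 95% interval, 47.3 to 61.7). It was detected in 79 of 230 in RARα-KO tumors, 34.3% (28.2 to 40.9), and in 142 of 242 in RARα-TG tumors, 58.7% (52.2 to 64.9). The RARα-KO share was lower than both others, beyond counting error. All intervals given here cover counting error only, and with 1 sample per genotype no test between genotypes is possible. The share of cells with a UMI also moves with depth, and the CD4 T cells had median UMI counts of 4034.5 for WT, 4874 for RARα-KO and 4051 for RARα-TG tumors. With each cell thinned to 1000 UMIs, Foxp3 was detected in 24.0%, 16.5% and 28.1%, which kept the order of the genotypes. Within cells of 2500 to 5000 UMIs, the shares were 56.1% for WT, 34.9% for RARα-KO and 56.3% for RARα-TG tumors. When each clonotype counted equally, the shares were 58.8%, 41.5% and 58.0%. From its single-cell RNA data, the paper reports fewer Treg cells in RARα-KO than in RARα-TG tumors. It proposes that more RARα may modestly raise T cells with Foxp3, which its flow cytometry of tumors did not bear out. By flow cytometry of FoxP3 protein, the paper reports Treg shares that were largely comparable between the genotypes. Among small differences it names an increase for RARα-KO with MC38 tumors.

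Outside the CD4 gate, Foxp3 was rare where it should be absent. It was detected in 5 of 798 WT CTLs (0.627%), 10 of 993 RARα-KO CTLs (1.01%) and 1 of 95 RARα-TG CTLs (1.05%), whose median UMI counts were 5770, 5397 and 4680. It was found in none of the myeloid cells, which numbered 76 for WT (0 of 76), 127 for RARα-KO (0 of 127) and 37 for RARα-TG (0 of 37), which, with 3 cells of the total as the limit, allows shares of cells with a UMI of up to 3.95%, 2.36% and 8.11%. In cells without Ptprc that carried tumor or stromal transcripts, Foxp3 was found in 6 of 263, 4 of 127 and 0 of 24 cells (the last allows up to 12.5%), at median UMI counts of 28467, 28657 and 13770.5. The shares in CD4 T cells were thus far above those of the CTLs, myeloid cells and Ptprc-negative cells in the same library.

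Many Foxp3-positive T cells had no Cd4 UMI. Among T cells with no UMI of Cd4, Cd8a or Cd8b1, Foxp3 was detected in 79 of 220 for WT (35.9%), 40 of 123 for RARα-KO (32.5%) and 133 of 260 for RARα-TG tumors (51.2%), at median UMI counts near 3000 (2997, 2909 and 3031). Among T cells with both Cd4 and Cd8 UMIs, or with Cd8b1 but no Cd8a, it was detected in 19 of 92 (20.7%), 8 of 115 (6.96%) and 29 of 65 (44.6%). The CD4 gate held 51.0%, 57.7% and 46.6% of all Foxp3-positive T cells. Of all T cells, Foxp3 was found in 210 of 1306 for WT (16.1%; 14.1 to 18.2), 137 of 1461 for RARα-KO (9.38%; 7.93 to 10.99) and 305 of 662 for RARα-TG tumors (46.1%; 42.2 to 49.96). The share of all T cells was thus highest in the RARα-TG tumor, which had 95 CTLs, whereas within the CD4 gate it was within counting error of WT.

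All 9 genes were higher in CD4 T cells than in CTLs. The sums of each genotype were compared with edgeR's quasi-likelihood test with genotype as a block, and Benjamini-Hochberg adjustment over the 8119 genes tested, of which 5.14% were higher and 2.77% were lower in CD4 T cells at adjusted p under 0.05. The p-values measure only the spread between the 3 genotype samples. Foxp3 had 352, 310 and 389 UMIs in CD4 T cells and 10, 17 and 1 in CTLs. Ebi3, a subunit shared by IL-27 and IL-35, had 16, 17 and 1 UMIs in CTLs. Lrrc32, which encodes GARP, the surface anchor of latent TGF-β, had 12, 6 and 3 there. Itgb8, the β8 integrin chain that with αv frees TGF-β from its latent form, had 0, 2 and 1. These genes passed the filter on low counts through the CD4 T cells, so no size is given for them. Maf, a transcription factor that acts on Il10, was also scarce in CTLs, with 24, 98 and 8 UMIs. Izumo1r, which encodes folate receptor 4, had 15, 84 and 4 UMIs there. Maf and Izumo1r passed the filter in the same way, so no size is given for them either.

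The remaining 3 genes differed less between CD4 T cells and CTLs. Ikzf2 (Helios) was higher in CD4 T cells by a log2 difference of 2.33 (SE 0.34, adjusted p = 0.00883, edgeR). Il2ra (CD25, the high-affinity IL-2 receptor subunit) was higher by 2.26 (SE 0.36, adjusted p = 0.012). Ikzf4 (Eos, like Helios a member of the Ikaros family) was also higher, with 108, 111 and 3 UMIs in CTLs. Ikzf4 passed the filter on low counts through the CD4 T cells, so no size is given for it. Without the WT sums, Il2ra and Ikzf4 no longer passed the test (adjusted p = 0.0662 and 0.0611). In CTLs, Ikzf2 stood at 121 CPM for WT, 31.0 CPM for RARα-KO and 119 CPM for RARα-TG tumors, and Il2ra at 129, 180 and 79.3 CPM. Foxp3-negative CD4 T cells held Ikzf2 at 151, 98.5 and 117 CPM, so that for WT and RARα-TG cells this was close to the CTL level.

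Within CD4 T cells, 7 of the 8 other genes tracked Foxp3. Foxp3-positive and Foxp3-negative CD4 T cells of the same genotype were compared in the same kind of fit over 6004 genes, of which 7.93% were higher and 6.11% were lower in the Foxp3-positive cells. All 8 genes passed the filter on low counts, 7 were higher, 0 were lower, and Ebi3 did not pass. Ikzf4, Lrrc32 and Itgb8 passed the filter through the Foxp3-positive cells. The median log2 difference was 2.31 over the 8 genes and -0.01 over all genes tested. Foxp3 chose the cells and was not tested. Its level in the Foxp3-positive cells was 610 CPM for WT (548 to 677), 635 CPM for RARα-KO (566 to 709) and 518 CPM for RARα-TG cells (468 to 572).

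Il2ra stood at 1057 CPM for WT, 977 CPM for RARα-KO and 1293 CPM for RARα-TG Foxp3-positive cells, against 238, 140 and 380 CPM in Foxp3-negative cells. The log2 difference was 2.22 (SE 0.16, adjusted p = 1.33e-07, edgeR). An Il2ra UMI was found in 91.6%, 93.7% and 90.8% of the Foxp3-positive cells and in 38.2%, 28.5% and 46% of the others. Il2ra was thus found in most Foxp3-positive cells and also in many cells outside them.

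The Ikaros family members differed in level. Ikzf2 stood at 786, 753 and 535 CPM in Foxp3-positive cells of WT, RARα-KO and RARα-TG tumors, against 151, 98.5 and 117 CPM (log2 difference 2.51, SE 0.16, adjusted p = 2.76e-08). It had the smallest adjusted p of the 8 genes. Ikzf4 was scarce, with 65.8, 83.9 and 67.9 CPM against 39.6, 25.5 and 11.3 CPM. The Foxp3-negative cells held 17, 21 and 5 Ikzf4 UMIs. Ikzf4 passed the filter on low counts through the Foxp3-positive cells, so no size from the test is given for it. In WT cells alone the Ikzf4 ratio was 0.73 on the log2 scale, with an interval that included 0, and for RARα-KO and RARα-TG cells it was 1.72 and 2.59.

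The pair that acts on latent TGF-β was also higher in Foxp3-positive cells. Lrrc32 stood at 180 CPM for WT, 102 CPM for RARα-KO and 132 CPM for RARα-TG Foxp3-positive cells, against 30.3, 3.65 and 13.5 CPM. It had 13, 3 and 6 UMIs in the Foxp3-negative cells. Lrrc32 passed the filter on low counts through the Foxp3-positive cells, so no size is given for it. Itgb8 stood at 90.1, 69.6 and 133 CPM against 21.0, 6.08 and 24.8 CPM. The Foxp3-negative cells held 9, 5 and 11 Itgb8 UMIs. Itgb8 passed the filter in the same way, so no size is given for it either.

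Izumo1r stood at 322, 309 and 252 CPM in Foxp3-positive cells of WT, RARα-KO and RARα-TG tumors against 53.6, 62.0 and 47.3 CPM (log2 difference 2.41, SE 0.16, adjusted p = 6.31e-08). Its ratio hardly varied between genotypes, at 2.59, 2.32 and 2.41 on the log2 scale. Maf stood at 487, 526 and 590 CPM against 261, 175 and 221 CPM (log2 difference 1.30, SE 0.15, adjusted p = 1.47e-05). A Maf UMI was found in 55.1%, 45.7% and 36.0% of the Foxp3-negative cells, and its log2 difference was the smallest of the 7 genes that passed. In cells thinned to 1000 UMIs, where Ikzf4 and Itgb8 had too few counts to be tested, the log2 differences were smaller for most genes, at 1.0 for Il2ra, 0.97 for Ikzf2, 1.07 for Izumo1r and 1.20 for Maf, which still passed, and at 0.98 for Lrrc32, which did not.

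Ebi3 behaved differently. It stood at 144 CPM for WT, 219 CPM for RARα-KO and 94.5 CPM for RARα-TG Foxp3-positive cells, against 123, 99.7 and 101 CPM in Foxp3-negative cells (log2 difference 0.47, SE 0.21, adjusted p = 0.16, edgeR). Its ratio was 0.22 for WT, 1.14 for RARα-KO and -0.10 for RARα-TG cells on the log2 scale, and its counting interval lay above 0 in RARα-KO cells only. Without the RARα-TG sums, Ebi3 passed the test with a log2 difference of 0.70, and without RARα-KO (0.06) or WT (0.58) it did not pass. It also passed with the T cells that had no Cd4, Cd8a or Cd8b1 UMI added (0.81), a setting chosen after the data were seen. Myeloid cells of the same library held Ebi3 at 34.6, 26.6 and 50.8 CPM and Maf at 34.6, 36.8 and 69.3 CPM, below the CD4 T cells.

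**Figure D1:**
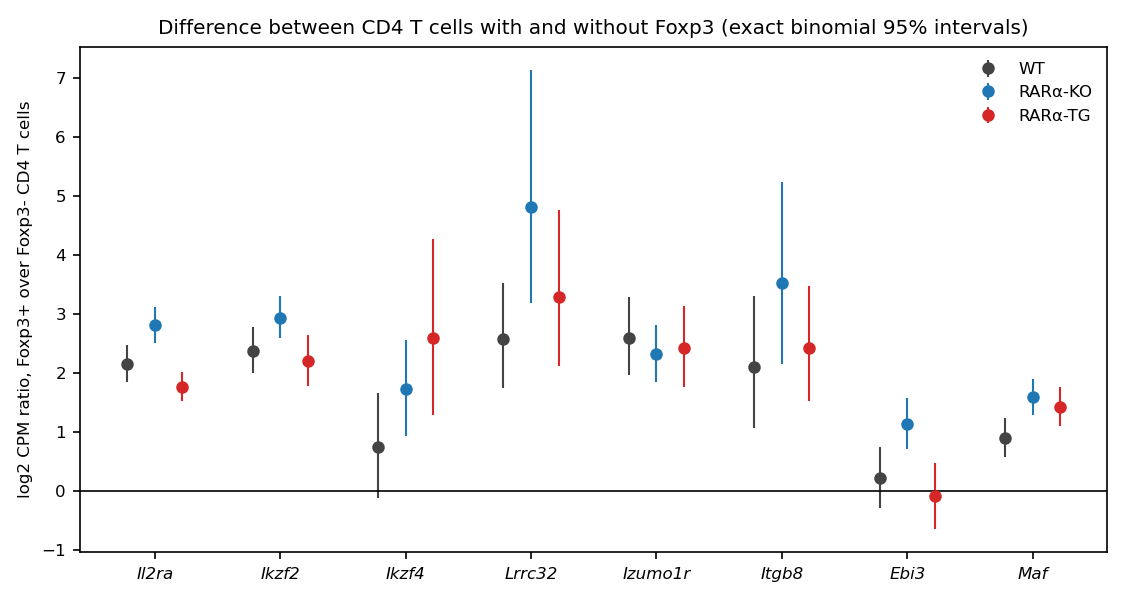
Log2 ratio of CPM between CD4 T cells with and without Foxp3 for the 8 other genes, 1 point per genotype with the exact binomial 95% interval. Points lie above 0 for every gene and genotype except Ebi3 in RARα-TG cells, and intervals include 0 for Ikzf4 in WT and for Ebi3 in WT and RARα-TG cells.

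Markers of other cells also differed with Foxp3. The 6 myeloid markers summed to 6.93, 8.19 and 21.3 CPM in Foxp3-positive cells of WT, RARα-KO and RARα-TG tumors, and to 88.5, 3.65 and 2.25 CPM in Foxp3-negative cells. The 5 tumor or stromal markers summed to 255, 32.8 and 152 CPM in the positive and to 37.3, 24.3 and 40.5 CPM in the negative cells. In WT Foxp3-positive cells, 1 cell held 44 of the 47 Col3a1 UMIs. The part of these transcripts in the differences above was not tested.

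The level of most genes stepped up with the first Foxp3 UMI and then changed little. Over all 3 genotypes, 340 CD4 T cells had 0 Foxp3 UMIs, 97 had 1, 66 had 2 and 165 had 3 or more, with median UMI counts of 4290.5, 3872, 3665 and 5244. Il2ra stood at 228, 1043, 1170 and 1158 CPM in these 4 classes, and Ikzf2 at 117, 669, 725 and 663 CPM. Lrrc32 stood at 13.0, 153, 147 and 132 CPM. Cells with a single Foxp3 UMI therefore already held these genes at the level of cells with 3 or more. Ebi3 stood at 106, 102, 190 and 148 CPM, so cells with 1 Foxp3 UMI held no more of it than cells with none.

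**Figure D2:**
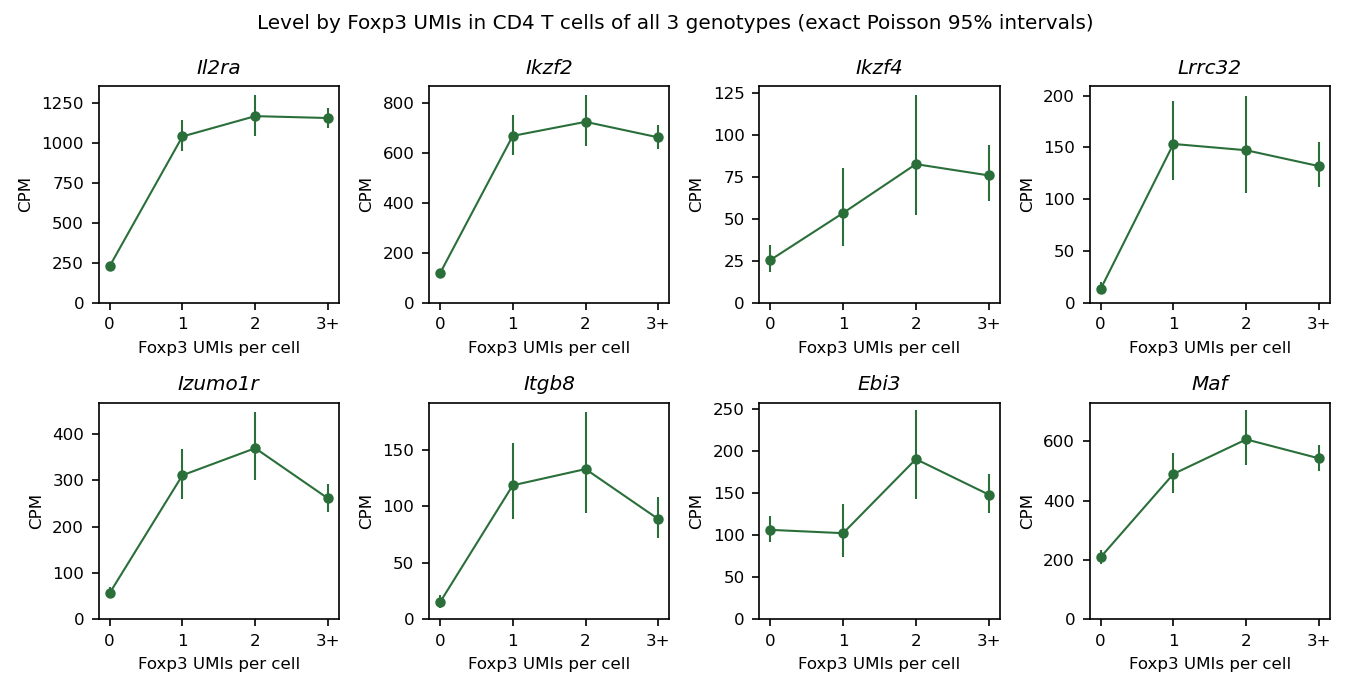
Level in CPM of the 8 other genes by the number of Foxp3 UMIs per CD4 T cell (0, 1, 2, 3 or more; all 3 genotypes), with exact Poisson 95% intervals. Il2ra rose from 228 CPM at 0 UMIs to 1043 CPM at 1 UMI, and Ebi3 stood at 106 and 102 CPM.

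Single cells held several of the genes at once. Of the 8 genes, Foxp3-positive cells had a UMI of a median of 5 for WT, 5 for RARα-KO and 4 for RARα-TG tumors, and Foxp3-negative cells of 2, 1 and 1. The share with 4 or more was 84.1%, 79.7% and 72.5% against 18.0%, 7.95% and 16.0%. With cells thinned to 1000 UMIs it was 22.4%, 8.86% and 12.7% against 2.25%, 1.32% and 4%. Without thinning, every Foxp3-positive cell had a UMI of at least 1 of the 8 genes, and 20.2%, 17.2% and 29.0% of the Foxp3-negative cells had none. With thinning, 8.41%, 8.86% and 9.15% of the Foxp3-positive and 51.7%, 62.3% and 55% of the Foxp3-negative cells had none. Conversely, within the 328 thinned Foxp3-positive cells, the 28 pairs of the 8 genes had phi coefficients (the correlation of UMI or no UMI) between -0.09 and 0.17 with a median of 0.02.

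The gene most like Foxp3 over all genotypes together was Gzmb, the cytotoxic granule protein granzyme B. Over all 668 CD4 T cells thinned to 1000 UMIs, and among 3047 genes found in 5% or more of them, Gzmb had the highest phi coefficient with Foxp3 (0.33), followed by Arl5a (0.26), Il2ra (0.25), Glrx (0.23), Maf (0.23), Tnfrsf9 (0.23), Klrg1 (0.22), Cd27 (0.21), Ccr2 (0.20) and Slc16a3 (0.20). Ikzf2 ranked 28, Izumo1r 43, Itgb8 50 and Lrrc32 87. Ikzf4 ranked 1187 and Ebi3 1702, with coefficients of 0.02 and -0.01. Phi falls with low levels, and all cells share 1 library, so these ranks describe the library. They also varied between genotypes. The coefficient of Gzmb was 0.21 for WT, below those of Arl5a (0.29), Klrg1 (0.28), Maf (0.27) and Cd27 (0.24), 0.49 for RARα-KO and 0.28 for RARα-TG cells, below that of Ccr2. The coefficient of Ccr2, a chemokine receptor, was -0.05 for WT, 0.13 for RARα-KO and 0.40 for RARα-TG cells.

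Related genes moved unevenly with Foxp3. Of 14 receptors known from Treg cells, 13 were tested, 10 were higher in Foxp3-positive cells, 1 was lower and 2 did not pass, with a median log2 difference of 1.0. Klrg1 (2.24), Il1rl1, the IL-33 receptor, and Ctla4, the inhibitory receptor that binds CD80 and CD86 (1.44), were higher by the most. Il1rl1 had 33, 42 and 36 against 9, 22 and 2 UMIs and passed the filter on low counts through the Foxp3-positive cells. Ctla4 stood at 1588, 1515 and 2107 CPM against 708, 501 and 709 CPM. Nrp1 was lower, with 13.9, 0 and 7.99 CPM against 48.9, 47.4 and 74.3 CPM. It had 8, 0 and 6 against 21, 39 and 33 UMIs and passed the filter on low counts through the Foxp3-negative cells. Of 13 genes of TGF-β activation and suppression, 10 were tested, 6 were higher, 2 were lower and 2 did not pass (median 0.64). Gzmb (2.11) and Itgav, the αv partner of Itgb8 (1.40), were among the higher, and Tgfbr2 (-1.21) and Tgfb1 (-0.36) were lower. Il10 was higher on 12, 70 and 73 against 2, 6 and 13 UMIs, and passed the filter through the Foxp3-positive cells. Gzmb stood at 2974, 3964 and 4537 CPM against 715, 635 and 1429 CPM.

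Of 22 transcription factors around Foxp3, 20 were tested, 3 were higher, 4 were lower and 13 did not pass, with a median of -0.15. Ikzf3 (0.97), Prdm1, which encodes Blimp-1, and Batf (0.66) were higher. Prdm1 had 45, 27 and 43 against 12, 40 and 7 UMIs and passed the filter on low counts through the Foxp3-positive cells. In RARα-KO cells, Prdm1 (55.3 against 48.6 CPM) and Batf (377 against 360 CPM) hardly differed with Foxp3. Tcf7, which encodes TCF-1 of stem-like T cells, was lower, on 1, 0 and 2 UMIs in Foxp3-positive and 42, 70 and 52 UMIs in Foxp3-negative cells, and passed the filter through the latter. Bach2 was also lower, on 4, 0 and 4 against 17, 29 and 21 UMIs, and passed the filter in the same way. Bcl6 was lower, on 11, 2 and 18 against 22, 36 and 28 UMIs, and also passed the filter through the Foxp3-negative cells. Tcf7 stood at 1.73, 0 and 2.66 CPM against 97.8, 85.1 and 117 CPM. Of 12 IL-2 pathway genes, 11 were tested, Socs2 (1.32) and Il7r (0.47) were higher, Stat5a (-0.80) was lower and 8 did not pass (median 0.01). Of 11 genes of conventional helper cells, 6 were tested, 0 were higher, 5 were lower and 1 did not pass (median -4.88). Ifng stood at 6.93, 0 and 1.33 CPM in Foxp3-positive and at 564, 139 and 317 CPM in Foxp3-negative cells. Csf2, the gene of the cytokine GM-CSF, had 0 UMIs in Foxp3-positive and 276 in Foxp3-negative cells, at least 98.5-fold lower with a floor of 3 UMIs over the group. In RARα-TG cells, Tnf had only 5 UMIs in Foxp3-positive (6.66 CPM) and 3 UMIs in Foxp3-negative cells (6.75 CPM), too few to compare.

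TCR clonotypes, which had no part in the split by Foxp3, mostly fell to one side of Foxp3. Of 77 clonotypes with 2 or more CD4 T cells (274 cells), 37 had Foxp3 in every cell, 33 in none and 7 were mixed, so 70 of 77 (90.9%; 82.2 to 96.3) were of 1 kind. It was 23 of 23 for WT (100%; 85.2 to 100), 28 of 32 for RARα-KO (87.5%) and 19 of 22 for RARα-TG tumors (86.4%). The share of pairs of cells of the same clonotype that were alike for Foxp3 was 93.5%, as a mean with each clonotype weighted equally. Of all pairs of different clonotypes of the same genotype, without such weighting, 51.9% were alike. When 2 or more Foxp3 UMIs were asked for, or cells were thinned to 1000 UMIs, 67.5% of the clonotypes were of 1 kind. Clonotypes were counted within each genotype, so the cells counted together come from the same sample and are not replicates. Of 468 clonotypes, 3 were found in more than 1 genotype.

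The sequences of the complementarity-determining region 3 (CDR3) are shown for 1 clonotype of each genotype with many Foxp3-positive cells, and 1 large clonotype without any, because they are the tags by which sister cells were recognised. They were read from the deposited TCR contigs, run 5′ to 3′, and the capitals mark the codons between the conserved first and last codon of the CDR3.
WT, 5 of 5 cells with Foxp3, TRA: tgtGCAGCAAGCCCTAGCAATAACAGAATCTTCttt
WT, 5 of 5 cells with Foxp3, TRB: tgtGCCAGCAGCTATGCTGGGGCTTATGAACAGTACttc
WT, 0 of 14 cells with Foxp3, TRA: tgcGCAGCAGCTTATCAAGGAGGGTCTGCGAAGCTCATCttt
WT, 0 of 14 cells with Foxp3, TRB: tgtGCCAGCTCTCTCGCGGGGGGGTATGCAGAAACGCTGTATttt
RARα-KO, 4 of 4 cells with Foxp3, TRA: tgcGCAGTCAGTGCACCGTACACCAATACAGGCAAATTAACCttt
RARα-KO, 4 of 4 cells with Foxp3, TRB: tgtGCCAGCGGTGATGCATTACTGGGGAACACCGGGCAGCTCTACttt
RARα-KO, 0 of 13 cells with Foxp3, TRA: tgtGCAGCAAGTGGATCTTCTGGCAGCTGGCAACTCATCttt
RARα-KO, 0 of 13 cells with Foxp3, TRB: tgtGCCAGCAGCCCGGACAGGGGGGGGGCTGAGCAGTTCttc
RARα-TG, 14 of 17 cells with Foxp3, TRA: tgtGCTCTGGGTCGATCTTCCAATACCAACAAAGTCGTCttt
RARα-TG, 14 of 17 cells with Foxp3, TRB: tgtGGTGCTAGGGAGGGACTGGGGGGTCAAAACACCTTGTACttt
RARα-TG, 0 of 6 cells with Foxp3, TRA: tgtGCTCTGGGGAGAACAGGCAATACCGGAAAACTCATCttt
RARα-TG, 0 of 6 cells with Foxp3, TRB: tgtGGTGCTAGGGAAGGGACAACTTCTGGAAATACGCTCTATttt

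Both RARα-TG clonotypes used TRAV6N-7 and TRBV20, with different J segments. Among the 16 clonotypes of 5 or more CD4 T cells, 12 had no Foxp3-positive cell, 2 of 3 for WT, 9 of 9 for RARα-KO and 1 of 4 for RARα-TG tumors. Cells whose clonotype was seen once had Foxp3 in 58.4%, 40.7% and 57.8%, and cells of repeated clonotypes in 47.9%, 28.7% and 60.5%. In RARα-KO tumors the large clonotypes therefore lay on the Foxp3-negative side, and the share of Foxp3 was also lowest among clonotypes seen once.

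**Figure D3:**
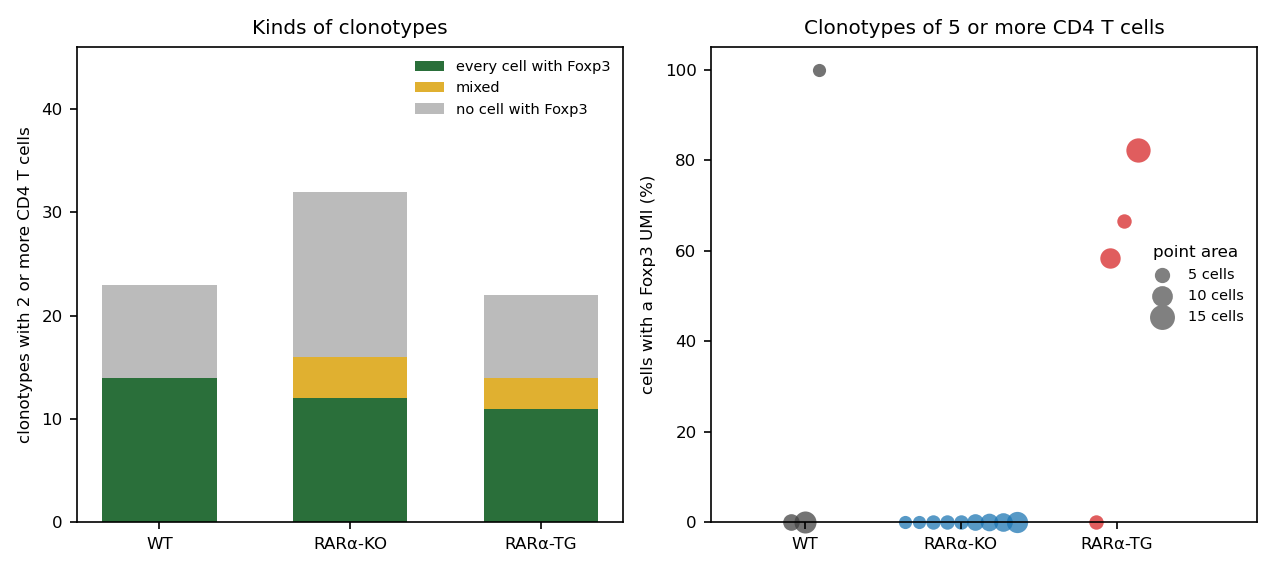
Left, clonotypes of 2 or more CD4 T cells by genotype, split by whether every, some or no cell had Foxp3; right, percent of cells with a Foxp3 UMI in each clonotype of 5 or more cells, with point area by cell number and sideways shifts only for display. All 9 RARα-KO clonotypes on the right lie at 0%, and 3 of the 4 RARα-TG clonotypes hold Foxp3-positive cells.

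Sister cells also bore on the Foxp3-negative cells. In all, 14 Foxp3-negative cells of 7 clonotypes had a Foxp3-positive sister, and 142 cells of 33 clonotypes had sisters but none with Foxp3. Il2ra stood at 551 CPM in the first and 169 CPM in the second (log2 ratio 1.71; 1.20 to 2.20), and Ikzf2 at 269 against 33.0 CPM (log2 ratio 3.03). Itgb8 stood at 58.6 against 2.44 CPM, from 5 and 2 UMIs. Ebi3 stood at 58.6 against 103 CPM, with an interval of the log2 ratio that included 0, and Lrrc32 had 0 and 3 UMIs. The 14 cells come from RARα-KO (4 cells) and RARα-TG tumors (10 cells) only, as no WT clonotype was mixed, and of the 142 others 22 were RARα-TG cells, so the pooled groups differ in genotype. Within RARα-TG cells the log2 ratio was 0.44 (-0.25 to 1.12) for Il2ra and 0.62 (-1.07 to 2.28) for Ikzf2, both with intervals that included 0, and 1.70 (0.67 to 2.80) for Maf. Within RARα-KO cells it was 2.14 (1.13 to 3.03) for Il2ra and 4.44 (3.29 to 5.61) for Ikzf2, from 4 cells.

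Within Foxp3-positive CD4 T cells, Lrrc32 and Ebi3 were the genes of the 9 that differed between RARα-KO and WT by 1.5-fold or more. Of the 6024 genes with a mean of 0.1 or more UMIs per cell, 9.53% were higher and 11.7% were lower in RARα-KO cells by that fold, and 1 of the 9 members was on each side, so the members' share was near the background. Lrrc32 UMIs numbered 104 for WT and 50 for RARα-KO, 180 CPM (147 to 218) against 102 CPM (76.0 to 135). It was 1.76-fold lower, a log2 ratio of -0.82 (-1.33 to -0.32). Ebi3 had 83 and 107 UMIs, 144 CPM (115 to 178) against 219 CPM (180 to 265), and was 1.52-fold higher, a log2 ratio of 0.61 (0.18 to 1.04). No single cell held more than 16% of the UMIs of either gene. Lrrc32 came to -0.58 with each clonotype weighted equally, and Ebi3 to 0.42 with a stricter hashtag rule, both within 1.5-fold.

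The other 7 genes stayed within 1.5-fold between RARα-KO and WT Foxp3-positive cells. The log2 ratio was 0.06 for Foxp3, -0.11 for Il2ra, -0.06 for Ikzf2, 0.35 for Ikzf4, -0.06 for Izumo1r, -0.37 for Itgb8 and 0.11 for Maf. In the CD4 gate, RARα-KO tumors thus had a smaller share of cells with Foxp3, though in thinned cells its interval overlapped that of WT. The Foxp3-positive cells held Foxp3 itself, Ikzf2 and Izumo1r at levels within counting error of WT. In cells thinned to 1000 UMIs, the ratio to WT was -0.16 for Foxp3 and -0.16 for Ikzf2, but -0.98 for Izumo1r, -0.50 for Il2ra and -3.28 for Lrrc32. All thinned WT and RARα-KO cells that had Foxp3 before thinning held only 30 and 7 Lrrc32 UMIs. The thinned Lrrc32 ratio therefore rests on very few UMIs and gives no reliable size. In T cells with Foxp3 but no Cd4, Cd8a or Cd8b1 UMI, looked at after the values above were known, the log2 ratio of RARα-KO to WT was -1.49 (-2.33 to -0.73) for Lrrc32 and 1.14 (0.48 to 1.81) for Ebi3. Izumo1r, near WT in the CD4 gate, was 0.68 (0.21 to 1.14) there.

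RARα-TG Foxp3-positive cells were compared with the same WT cells. Of 5994 genes, 12% were higher and 9.23% were lower by 1.5-fold or more, and 0 and 1 of the 9 members were. Ebi3 stood at 94.5 CPM (73.8 to 119) from 71 UMIs against 144 CPM in WT, 1.52-fold lower, a log2 ratio of -0.61 (-1.08 to -0.13). Ebi3 therefore lay below WT in RARα-TG and above WT in RARα-KO Foxp3-positive cells. Ikzf2 at 1.47-fold lower (log2 ratio -0.56; -0.75 to -0.36) and Itgb8 at 1.48-fold higher (0.56; 0.07 to 1.08) lay just inside the fold. An Ikzf2 UMI was found in 79.6% of RARα-TG cells, 94.4% of WT and 92.4% of RARα-KO cells. The log2 ratio was -0.45 for Lrrc32, -0.36 for Izumo1r, -0.24 for Foxp3, 0.04 for Ikzf4, 0.29 for Il2ra and 0.28 for Maf.

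In T cells with Foxp3 but no Cd4, Cd8a or Cd8b1 UMI, the RARα-TG to WT log2 ratio was -0.95 (-1.67 to -0.23) for Ebi3, -1.0 (-1.46 to -0.54) for Lrrc32 and -0.68 (-0.91 to -0.45) for Ikzf2, each in the direction seen in the CD4 gate. Itgb8 was at 0.12 there. The Ebi3 levels were 120 CPM for WT, 265 CPM for RARα-KO and 62.1 CPM for RARα-TG cells, which kept the order of the CD4 gate. In the CD4 gate, the RARα-TG ratio of Ebi3 lay within 1.5-fold at -0.36 with 2 or more Foxp3 UMIs asked for, and at 0.15, the opposite direction, in cells thinned to 1000 UMIs. Maf, at 0.28, likewise came to -0.13 in thinned cells. The tumor or stromal markers, at 255, 32.8 and 152 CPM, also moved between the genotypes in Foxp3-positive cells, and their part in these ratios was not tested.

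**Figure D4:**
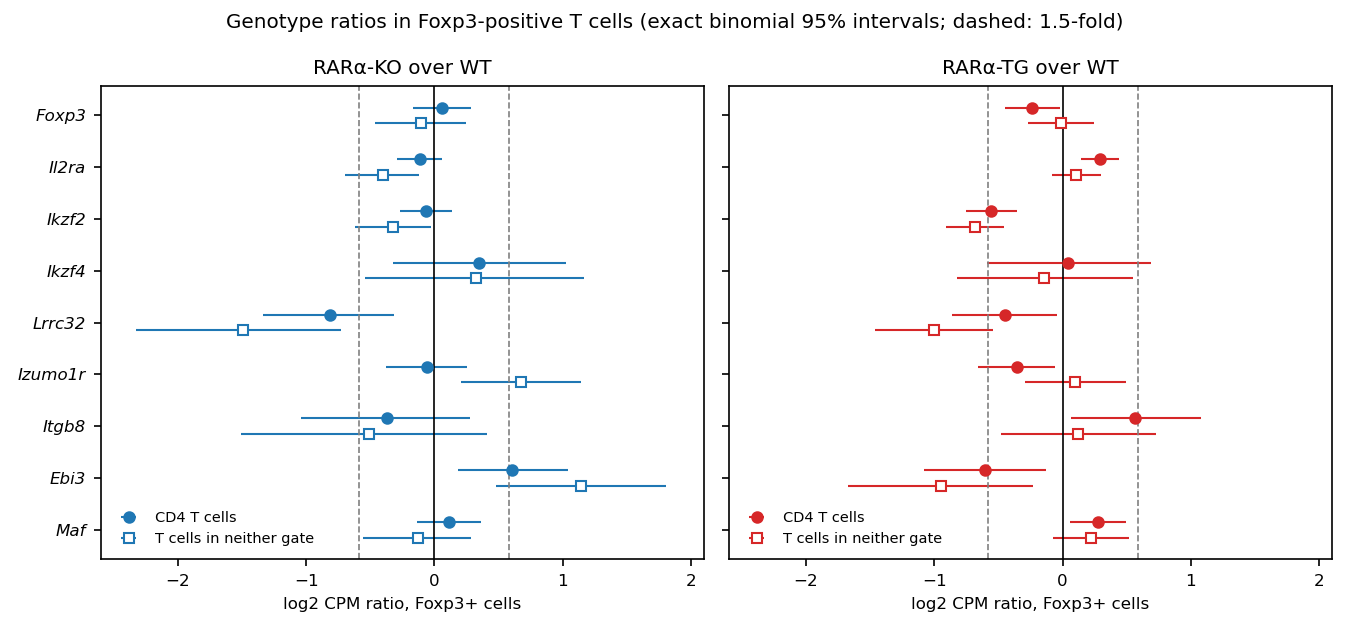
Log2 ratio of CPM to WT for the 9 genes in Foxp3-positive CD4 T cells, in RARα-KO and RARα-TG cells, with exact binomial 95% intervals and lines at 1.5-fold. Ebi3 lies at 0.61 for RARα-KO and -0.61 for RARα-TG cells, and Lrrc32 below 0 in both.

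In Foxp3-negative CD4 T cells, 8.56% of 5839 genes were higher and 13.1% were lower by 1.5-fold or more in RARα-KO than in WT. Of the 6 members with enough UMIs, 0 were higher and 3 were lower. Il2ra stood at 140 against 238 CPM (log2 ratio -0.77; -1.16 to -0.37), Ikzf2 had a ratio of -0.62, and Ikzf4 had a ratio of -0.63 with an interval that included 0. In RARα-TG cells, 11.5% of 5639 genes were higher and 12.2% were lower, and of 8 members 1 was higher and 2 were lower. Il2ra stood at 380 CPM against 238 CPM (log2 ratio 0.68; 0.32 to 1.05). Ikzf4 (-1.82, from 5 and 17 UMIs) and Lrrc32 (-1.17, with an interval that included 0) were the lower members.

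The myeloid markers stood at 88.5 CPM in the WT Foxp3-negative cells and at or below 3.65 CPM in the other genotypes, and the dendritic markers at 67.6 CPM against at most 2.43 CPM. Of the Lyz2 UMIs in these WT cells, 1 cell held 58.3%. Myeloid cells held Il2ra at 5.19 CPM or less, far below the CD4 T cells, and the part of these transcripts in the other ratios was not tested.

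In CTLs the values are given without a count of genes past the fold. Ikzf2 stood at 31.0 CPM in RARα-KO against 121 CPM in WT CTLs, 3.91-fold lower (log2 ratio -1.97; -2.20 to -1.74), while it was within counting error of WT in Foxp3-positive cells. Il2ra had a log2 ratio of 0.49 in RARα-KO and -0.70 in RARα-TG CTLs. Izumo1r had 84 UMIs in RARα-KO and 15 in WT CTLs (log2 ratio 2.21), and Maf 98 and 24 (log2 ratio 1.75), both below the mean of 0.1 UMIs per cell from which ratios are counted. For RARα-TG against WT, the Ikzf2 ratio was -0.03 in CTLs and -0.56 in Foxp3-positive cells. The differences between cell types were not tested.

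The related genes in Foxp3-positive cells are read against the same shares of all genes past 1.5-fold, 9.53% higher and 11.7% lower for RARα-KO, and 12% and 9.23% for RARα-TG. Of the Treg receptors, 12 had enough UMIs in each comparison. In RARα-KO against WT, Tnfrsf9, which encodes 4-1BB (log2 ratio 1.15), and Il1rl1 (0.59, with an interval that included 0) were higher and Nt5e, the ecto-enzyme CD73 (-2.26), was lower. In RARα-TG, Tnfrsf9 (0.96) and Klrg1 (0.83) were higher and Tnfrsf4, which encodes OX40 (-0.60), was lower. Among the TGF-β and suppressive genes, 10 had enough UMIs, and Il10 was higher by 2.79 for RARα-KO and by 2.23 for RARα-TG cells, on 12 UMIs for WT, 70 for RARα-KO and 73 for RARα-TG cells. Here 1 RARα-KO cell held 35 of the 70 Il10 UMIs. Gzmb was higher by 0.61 (0.53 to 0.69) in RARα-TG cells, on 3408 against 1717 UMIs. Tgfbr2 in RARα-KO (0.63) and Tgfbr1 in RARα-TG cells (0.68), both receptor chains for TGF-β, passed the fold with intervals that included 0. RARα-KO and RARα-TG share their WT cells, so that a high or low WT value moves both.

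Among the transcription factors, Id2 (-0.78) and Irf4 (-0.76, with an interval that included 0) of 17 were lower in RARα-KO and 0 were higher. Of 18 in RARα-TG, Ikzf3 (0.87) and Nfatc2 (0.62, with an interval that included 0) were higher, and Tbx21 (-1.19) and Irf4 (-0.79) were lower. Of 11 IL-2 pathway genes, Socs2 (-0.93) was lower in RARα-KO, and Socs1 (-1.20) and Stat5b (-0.66) were lower in RARα-TG. Of the helper genes, Tnf (2.62) and Tnfsf11 (0.74, with an interval that included 0) passed in RARα-KO, and 1 RARα-KO cell held 9 of the 26 Tnf UMIs. In RARα-TG cells, Il17a had 32 UMIs in 11 cells against 0 UMIs in WT, at least 3.04 higher on the log2 scale with a floor of 3 UMIs in WT. Il17a, a cytokine of Th17 cells, was thus detected in Foxp3-positive cells of the RARα-TG tumor only, at 0 UMIs in both others.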

How the data were processed

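Gene and hashtag UMI counts per barcode, not normalized, were deposited with TCR contigs; per the labels the reads were aligned to mm10 with Cell Ranger 6.1.0 (the header of the deposited counts names another major version). The members and lists were chosen with earlier results of these data known. Cells were called again as in Cell Ranger (3000 expected cells, then barcodes of 500 or more UMIs tested against ranks 45000 to 90000 at FDR 0.01), which gave 5585 cells with 96.4% of the gene UMIs. HTODemux (Seurat 5.3.0, R 4.3.3, 0.99 quantile) gave 1927 WT, 2103 RARα-KO and 895 RARα-TG singlets; 426 hashtag doublets and 234 cells without a hashtag were left out. Doublets within a genotype were not called; 129 of 3429 T cells had more than 1 productive TRB. Of 1759 cells in 106 clonotypes of 5 or more cells, 3 carried another hashtag than their clonotype. Median UMIs per cell were 5155, 5129 and 3413.

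UMIs were summed over cells per genotype. CPM had exact Poisson, shares Clopper-Pearson and ratios exact binomial 95% intervals. A ratio between genotypes was counted from 1.5-fold, among genes with a mean of 0.1 or more UMIs per cell. For genes without a UMI, 3 UMIs served as the floor. Tests used edgeR 4.0.16 (TMM, filterByExpr, quasi-likelihood, genotype as a block) on 6 sums, at adjusted p under 0.05; SEs are the log2 difference over the square root of F. In simulated data, 200 of 200 genes changed 4-fold were recovered for Foxp3-positive against Foxp3-negative cells (5781 genes) and 194 of 200 for CD4 T cells against CTLs (7933 genes). There, 4 and 7 unchanged genes were called. The changed genes were drawn from well-counted ones, so this does not cover scarce genes. Alternatives were DESeq2 1.42.0, no filter, no block, other gates, clusters from scanpy 1.11.5 (Python 3.11.15), thinning, other weights, and leaving out 1 genotype. All 9 members, up to 3 genes per list and direction past the rule, and the 10 genes of highest phi were named. Genes given with cell-level counts beyond these, and T cells with no Cd4, Cd8a or Cd8b1 UMI, were looked at after values were seen.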

Additional observations from a re-analysis of the deposited data

Results flagged for a closer look

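Il2ra and Maf moved in opposite directions in different T cells of the same genotypes. With 1 sample per genotype, the difference between the cell types was not tested.

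In RARα-KO against WT, the Il2ra log2 ratio was -0.77 in Foxp3-negative CD4 T cells and 0.49 in CTLs. Maf was at -0.58 in Foxp3-negative CD4 T cells and 1.75 in CTLs, with 24 UMIs for WT and 98 for RARα-KO.

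In RARα-TG against WT, Il2ra was at 0.29 in Foxp3-positive and 0.68 in Foxp3-negative CD4 T cells, and at -0.70 in CTLs, of which the RARα-TG tumor had 95.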

How the results depend on the processing

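Of the values that answer a comparison, 97 stayed close to the reported value under an alternative and 35 moved; the cause was not tested. The samples carry no replicate numbers; the reported fits pair the cells of each genotype through the genotype block. With cells thinned to 1000 UMIs, the share of CD4 T cells with Foxp3 was 24.0% (WT), 16.5% (RARα-KO) and 28.1% (RARα-TG); 67.5% of clonotypes were of 1 kind; 4 members of 6 tested were called higher in Foxp3-positive cells; 2 members were lower in RARα-KO and 2 higher in RARα-TG; and Ebi3 turned to -0.14 (Foxp3-positive against negative) and, against WT in RARα-TG, Ebi3 to 0.15 and Maf to -0.13. With 2 or more Foxp3 UMIs asked for, 67.5% of clonotypes were of 1 kind, and 1 member (Itgb8, 0.84) was higher and 0 lower in RARα-TG. With equal weight per clonotype, the RARα-KO share was 41.5%, 0 members were lower in RARα-KO (Lrrc32 at -0.58), and 1 was higher (Itgb8, 0.61) and 0 lower (Ebi3 at -0.47) in RARα-TG. With the T cells in neither gate added, chosen after seeing the data, the WT share was 44.7%, 78.7% of clonotypes were of 1 kind and 3 members were lower in RARα-TG. With the largest hashtag 5 or more times the next, 0 members were higher in RARα-KO (Ebi3 at 0.42) and 2 lower in RARα-TG. For RARα-TG, 0 were lower with T cells from clusters (Ebi3 at -0.53) or without cells of more than 1 TRB (-0.55), and 2 with mitochondrial, ribosomal and receptor genes left out of CPM.

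Calls over all genes are given as shares of the genes tested, whose number differed between settings. For Foxp3-positive against negative cells, 7.93% were higher and 6.11% lower; this became 2.86% and 2.86% with thinning (54 and 54 genes), 4.14% and 3.55% with 2 or more Foxp3 UMIs (253 and 217), 2.96% and 2.91% with DESeq2 (178 and 175, against 476 and 367) and 4.41% and 3.38% without the genotype block (265 and 203). Leaving out 1 genotype gave 4.65% to 7.72% higher, the fewest without WT (of 6512 genes tested). For CD4 T cells against CTLs, leaving out 1 genotype gave 1.82% to 5.57% higher (150 to 566 genes) and 0.681% to 3.21% lower (56 to 326), the fewest without WT, where Il2ra and Ikzf4 lost their call; 4.93% were lower with T cells from clusters (401, against 225) and 2.38% without a filter on low counts (383). Ikzf4, Itgb8 and Lrrc32 rested on few UMIs in Foxp3-negative cells, with 17, 9 and 13 for WT, 21, 5 and 3 for RARα-KO and 5, 11 and 6 for RARα-TG.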
